A study of Mus musculus with 27 samples.

Results

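The livers described here are those of hepatocyte Acly-knockout mice (KO), compared 24 hours after ischemia-reperfusion (IR) surgery and after sham surgery. They were chosen by sample title: 4 IR and 4 sham libraries of bulk RNA, 8 of the 27 samples of the study and 8 of its 16 RNA libraries. The genotype is written Alb-cre:Aclyf/f, that is, a floxed Acly gene in mice that carry Cre under the albumin promoter, which is active in hepatocytes. Whether other liver cells kept the gene was not checked. Both groups carry this genotype and differ in surgery, which the labels also record as Hypoxia-reperfusion and Normoxia. Tissue was taken from an area the design text calls broader zone, and no control that carries Cre without the floxed gene is described. The other 8 RNA libraries are wild-type (WT) livers after the same surgeries, 4 and 4, and the 11 CUT&RUN samples of cultured hepatocytes were not analysed here. The study's title gives nuclear ACLY as a protector of the liver from this injury, and the comparison asks what the surgery does to liver RNA when hepatocytes lack the gene.

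ACLY, ATP citrate lyase, splits citrate outside mitochondria into acetyl-CoA, the building block of fatty acids and cholesterol and the acetyl donor for histones. In hepatic ischemia-reperfusion the blood supply is clamped and then restored, and hepatocytes are injured first by lack of oxygen and then by oxidative stress and inflammation. An injured liver commonly raises acute phase transcripts and lowers the abundant transcripts of secreted proteins and metabolic enzymes. Hepatocytes make most of the RNA of a liver sample, and their messages are dominated by a small set of very abundant transcripts.

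The files name transcripts by Ensembl identifiers only, and none of the tables used here pairs these with genes. The results are therefore given per transcript and by the level and length of transcripts, no gene list was tested, and neither Acly RNA nor the marker genes of liver cell types were checked. For the same reason no sequence is printed. A change of one transcript can be a change of the whole gene or a shift between its isoforms. In such bulk samples, fewer cells of a type and less RNA per cell cannot be told apart. The KO libraries held 37.79 to 44.35 M estimated counts: KO IR 1, 2 and 3 had 37.79, 37.9 and 38.22 M, KO IR 4 had 44.35 M, and the 4 KO sham libraries had 43.55 to 43.79 M. Whether each library is a different mouse is not stated, and the p-values therefore cover only the library-to-library spread, which may be technical.

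IR changed 4075 transcripts in KO livers. Of 36041 transcripts tested, 2105 rose and 1970 fell (edgeR, p adjusted over all of them under 0.05), which is 5.84% and 5.47% of those tested and 11.3% together. Of the rises 1039 were at least 2-fold, 385 at least 4-fold and 208 at least 8-fold. Of the falls 880, 254 and 94 reached these sizes, so changes of 8-fold or more made up 9.88% of the rises and 4.77% of the falls. The 4 IR libraries lay wholly above the 4 sham libraries in 1966 of the rises and wholly below them in 1865 of the falls. Over all tested transcripts the groups did not overlap in 6982, or 19.4%.

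The balance between the directions depended on the scaling. The counts above use TMM factors (trimmed mean of M-values), which centre the bulk of transcripts at no change (median log2 fold change 0.01). Scaled by library totals alone, the median over all tested transcripts was 0.30, and 5185 transcripts rose while 1053 fell, so 83.1% of calls were rises in place of 51.7%. The number of rises was 1363 without KO IR 2. With TMM factors, the fits that left out 1 KO library gave 1363 to 1873 rises and 1431 to 1889 falls; no such fit was made on library totals.

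**Figure D1:**
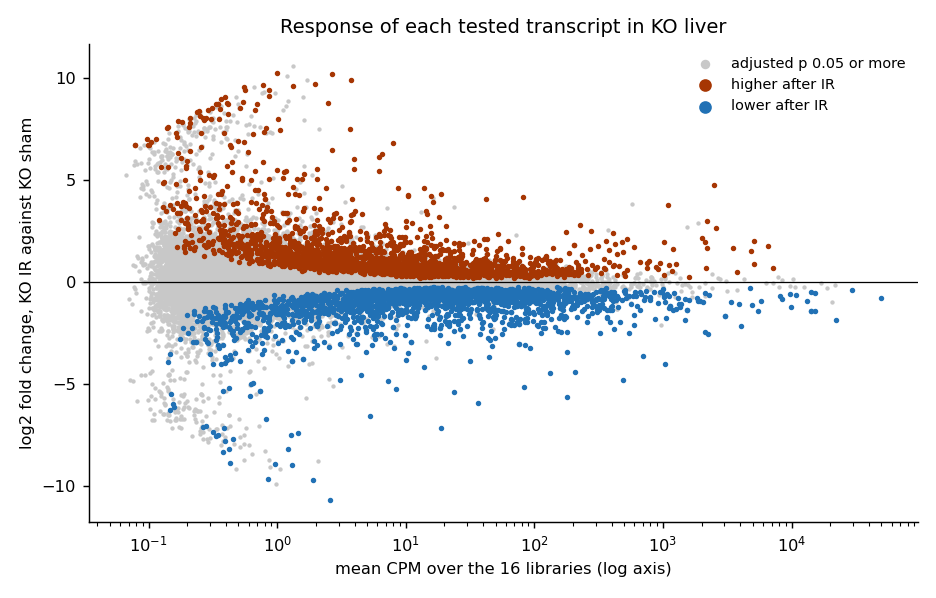
Log2 fold change of KO IR against KO sham (y axis) for each of the 36041 tested transcripts, against its mean CPM over the 16 libraries (x axis, log scale). Dark orange points rose and blue points fell at an adjusted p under 0.05, and grey points did not pass. At the right end, at 1000 CPM or more, 53 transcripts fell and 22 rose.

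The 4 transcripts described next were picked as the largest rises and falls among called transcripts of at least 10 CPM (counts scaled to library size) on average over the 8 KO libraries, with no overlap between the KO groups. Each reached that level through 1 of the groups, so the gap between the groups follows from the choice, and the KO fold changes and p-values describe the picked transcripts. The largest rise was in ENSMUST00000040404.7, a transcript of 744 bases, which had 41 counts over the KO sham libraries and 5127 over the KO IR libraries. In TPM, a level corrected for transcript length and library size, it stood at 0.347, 0.438, 0.568 and 0.26 TPM in KO sham livers 1 to 4 and at 40.6, 140, 16.7 and 41.1 TPM in KO IR livers 1 to 4. All 4 sham libraries were under 1 TPM, and KO IR 2 was well above the other IR libraries. The mean went from 0.403 ± 0.132 to 59.5 ± 54.7 TPM (SD, n = 4), a fitted log2 fold change of 6.80 (SE 0.68, 111-fold, adjusted p = 2.65e-05 by edgeR). In WT livers the same transcript went from 0.466 ± 0.221 to 5.17 ± 2.95 TPM (SD, n = 4), a log2 fold change of 3.35 (SE 0.62, adjusted p = 0.0108 by edgeR). The difference between the genotypes' responses, 3.45 on the log2 scale (SE 0.89), did not pass (adjusted p = 0.112 by edgeR).

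ENSMUST00000041388.10, of 3011 bases, was next. It was nearly absent from KO sham livers, at 0.0687, 0.197, 0.0726 and 0.0665 TPM in libraries 1 to 4, which together held 52 counts. After IR it stood at 6.5, 22.1, 6.1 and 2.98 TPM, with 3987 counts in all, and KO IR 2 was again the highest. The log2 fold change was 6.13 (SE 0.83, 69.8-fold, adjusted p = 0.000263 by edgeR). WT livers had 0.125 ± 0.106 TPM after sham and 0.563 ± 0.304 TPM after IR (SD, n = 4), and neither this response (adjusted p = 0.218 by edgeR) nor its difference from the KO response (4.06 on the log2 scale, SE 1.07, adjusted p = 0.122 by edgeR) passed.

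The deepest fall was in ENSMUST00000177567.7, of 2456 bases. KO sham livers 1 to 4 had 9.41, 17.6, 30.7 and 7.73 TPM, and KO IR livers had 0.219, 8.88e-05, 0.3 and 0.0418 TPM. The transcript had 6686 counts over the sham libraries and 49 over the IR libraries. Its log2 fold change was -7.18 (SE 1.17, 145-fold lower, adjusted p = 0.00101 by edgeR). WT livers went from 13.5 ± 12.9 to 0.0129 ± 0.00598 TPM (SD, n = 4, log2 fold change -10.07), and the responses of the genotypes did not differ beyond their error (2.90 on the log2 scale, SE 2.20, adjusted p = 0.722 by edgeR). WT sham livers 1 to 4 had 0.329, 30.4, 15.6 and 7.69 TPM, so WT sham 1 was near the level of KO IR 3 without IR.

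ENSMUST00000102755.3, of 1632 bases, fell from a higher level. It stood at 26.5, 57.3, 56.6 and 39.3 TPM in KO sham livers 1 to 4 and at 1.79, 0.763, 0.817 and 0.466 TPM in KO IR livers, with 11822 and 213 counts in all. The log2 fold change was -5.92 (SE 0.81, 60.6-fold lower, adjusted p = 0.000279 by edgeR). In WT livers it went from 36.8 ± 19.5 to 8.09 ± 8.35 TPM (SD, n = 4, log2 fold change -2.17, SE 0.67, adjusted p = 0.129 by edgeR). The difference of the responses was -3.75 on the log2 scale (SE 0.97) and did not pass (adjusted p = 0.112 by edgeR).

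**Figure D2:**
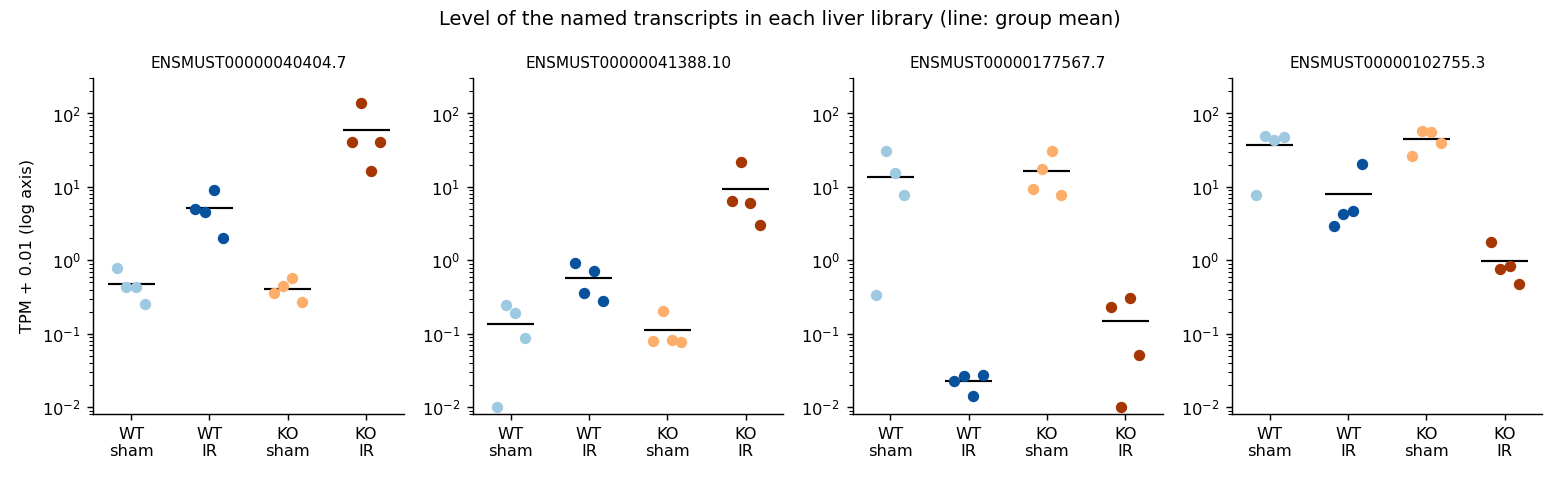
TPM of the 4 named transcripts in each of the 16 liver libraries, with 0.01 added and on a log axis. Each point is 1 library, in the order 1 to 4 from left to right, and the line is the group mean. In each panel the 4 KO IR points lie apart from the 4 KO sham points, as the choice of transcripts required, and the WT IR points lie on the same side of their sham group in mean.

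The falls carried far more RNA than the rises. The transcripts that fell held 51.3 ± 1.3% of all TPM in KO sham livers and 33.2 ± 1.35% in KO IR livers, while those that rose went from 5.14 ± 0.287% to 14.7 ± 1.48% (SD, n = 4). These sets were chosen on the same contrast, so the shares describe them and carry no test. Only 34 of the transcripts that fell lost 1000 TPM or more, and together they went from 36.7 ± 1.46% to 22.5 ± 0.683% of TPM. The 20 transcripts that gained as much went from 2.08 ± 0.288% to 7.88 ± 0.847%. Because TPM shares add to a fixed sum, uncalled transcripts also took a larger share, from 43.3 ± 1.05% to 51.8 ± 0.794%. KO IR 4, which had more counts than the other IR libraries, was itself among the libraries on which these sets were called. Its fallen transcripts held 32.7% of TPM and its risen ones 14%.

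The split of calls between the directions followed the level of the transcript. Under 1 CPM on average, 364 of 15989 transcripts rose and 218 fell. From 1 to 10 CPM, 897 of 13439 rose and 636 fell, and from 10 to 100 CPM 692 of 5720 rose and 794 fell (1986 and 366 with library totals). From 100 to 1000 CPM 269 of 776 transcripts fell and 130 rose with TMM factors, while 179 fell and 256 rose with library totals as the scale. Of the 117 transcripts of 1000 CPM or more, 53 fell (45.3%) and 22 rose (18.8%). The median log2 fold change was -0.17 and -0.41 in these upper classes, against 0.01 over all transcripts tested, and 0.02 and -0.09 in WT livers. Abundant transcripts have more counts, so the percentage called is not compared between classes, only the split within each.

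With library totals as the scale, all classes shifted up together, and the direction turned in both classes from 10 to 1000 CPM. At 1000 CPM or more 32 then rose and 41 fell, so falls still led. Relative to the median of all transcripts on each scale, the class of 1000 CPM or more lay at -0.43 with TMM factors, -0.43 with RLE factors (DESeq2's kind) and -0.44 with library totals.

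**Figure D3:**
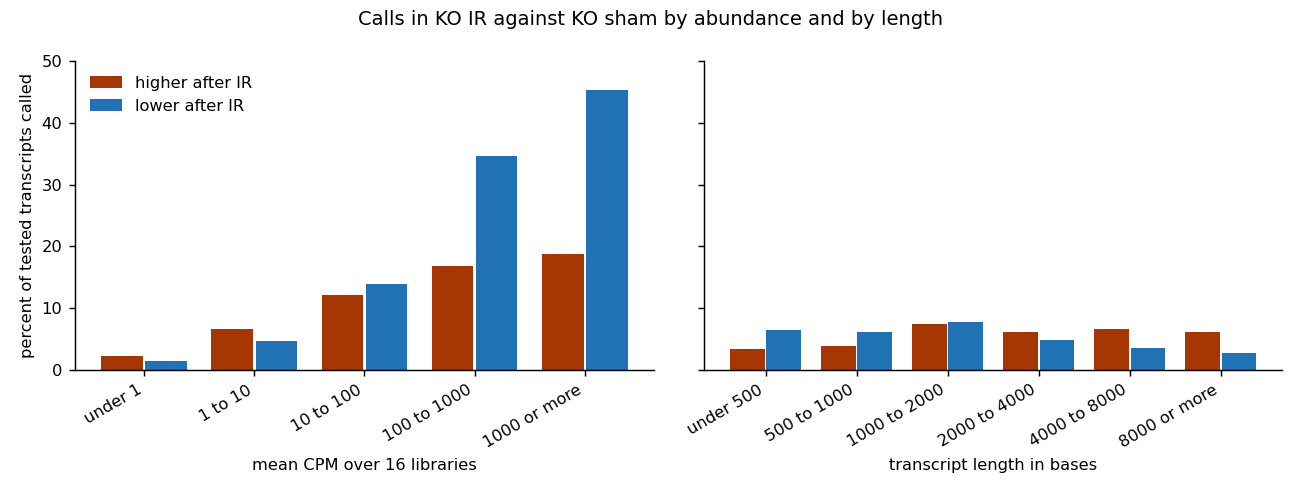
Percentage of tested transcripts that rose (dark orange) or fell (blue) in KO IR against KO sham livers, by mean CPM (left) and by transcript length in bases (right). With TMM factors, as drawn, blue bars exceed orange bars from 10 CPM upward and in lengths under 2000 bases; with library totals rises led from 10 to 1000 CPM and under 1000 bases.

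The 100 most abundant transcripts of WT sham livers, a list drawn without any KO library, fell more often than they rose in KO livers. With TMM factors 50 of them fell and 12 rose after IR, and their median log2 fold change was -0.55 against 0.01 over all tested transcripts. Of all tested transcripts 5.47% fell and 5.84% rose, but abundant transcripts have more counts, so these percentages are no like measure. Among the 117 transcripts of 1000 CPM or more, 45.3% fell and 18.8% rose. With library totals as the scale 38 of the list fell and 19 rose, and its median was -0.27 against 0.30. In the WT libraries, from which the list was drawn, the median was -0.23. The listed transcripts held 71.04, 69.57, 69.46 and 73.36% of TPM in KO sham livers 1 to 4 and 61.98, 59.38, 61.11 and 63.69% in KO IR livers 1 to 4. Every IR library was below every sham library, a difference of means of -9.32 percentage points. The two-sided exact permutation test gave p = 0.0286, the smallest possible with 4 against 4, and adjusted p = 0.0327 over the 8 library measures tested. The list was picked by level after sham surgery, a choice that can favour falls over rises after IR. How much of the lower share comes from this choice was not tested. With the 100 most abundant transcripts picked anew for each KO library, the mean share went from 71.0 ± 1.88% after sham surgery to 65.8 ± 1.62% after IR (SD, n = 4). That difference was -5.28 percentage points (exact permutation p = 0.0286, adjusted 0.0327).

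The RNA was spread over more transcripts. It took 25, 27, 26 and 21 transcripts to hold 50% of the TPM of KO sham livers 1 to 4 and 37, 42, 41 and 34 after IR (exact permutation p = 0.0286, adjusted 0.0327). KO sham livers had 16080.5 ± 704 transcripts of at least 1 TPM and KO IR livers 18283.2 ± 922 (SD, n = 4, exact permutation p = 0.0286, adjusted 0.0327). KO IR 4, with 44.35 M counts, had 17417 such transcripts, and the highest sham library had 16682. The total itself was 43.68 ± 0.101 M in KO sham and 39.56 ± 3.19 M in KO IR livers (SD, n = 4, exact permutation p = 0.143, adjusted 0.143). Its part in the other measures was not tested. Because TPM adds to a fixed sum, a transcript can pass 1 TPM when abundant ones fall. The gain is therefore not a count of newly expressed transcripts, and how much of it comes from the fixed sum was not tested.

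Transcripts called in the contrast of the WT groups also shifted in KO livers. Those that rose in WT (513 transcripts) held 2.537, 3.08, 2.875 and 3.065% of TPM in KO sham livers 1 to 4 and 7.948, 9.61, 7.981 and 8.392% in KO IR livers. Those that fell in WT (326 transcripts) went from 11.43, 11.33, 12.27 and 9.459% to 6.466, 6.388, 6.906 and 5.442%. For both lists the KO groups were fully apart (exact permutation p = 0.0286, adjusted 0.0327 each). The KO IR means, 8.48 ± 0.778% and 6.30 ± 0.616%, lay within 1 SD of those of WT IR livers, 8.53 ± 1.1% and 6.17 ± 0.494% (SD, n = 4). Those lists were called on the contrast of the WT groups, so no test was made between the genotypes here. The fit held all 16 libraries, so its filter, scaling and estimate of spread were shared with the KO livers.

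**Figure D4:**
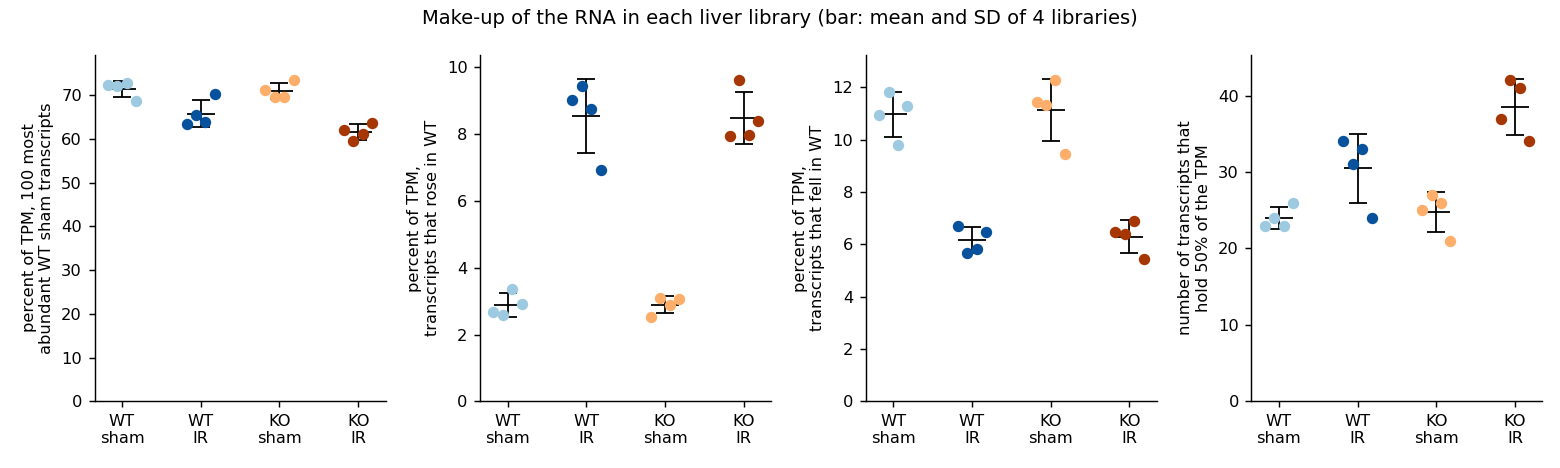
Make-up of the RNA in each of the 16 liver libraries: percent of TPM in the 100 most abundant WT sham transcripts, in the transcripts that rose in WT and in those that fell in WT, and the number of transcripts that hold 50% of the TPM. Points are libraries 1 to 4 from left to right, and bars give the mean and SD of 4. In each panel the KO IR points do not overlap the KO sham points.

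Short transcripts lay lower than long ones after IR. Under 1000 bases 349 of 9246 transcripts rose and 567 fell with TMM factors (821 and 345 with library totals), with a median log2 fold change of -0.06. At 4000 bases or more 465 of 7176 rose and 250 fell, with a median of 0.06. Falls led among the short and rises among the long in each class of level, again with TMM factors. From 10 to 100 CPM, 72 of 684 short transcripts rose and 174 fell, while 160 of 1553 long ones rose and 122 fell. With library totals as the scale, rises led at both lengths (1253 and 89 for the long), and the short class still lay below the median of all transcripts (-0.08) and the long class above it (0.05).

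The length difference was uneven between libraries. As a measure per library, the median deviation from WT sham livers of the longest 20% of transcripts (3991 bases or more) minus that of the shortest 20% (834 bases or less) was -0.11, -0.00047, 0.0026 and -0.041 on the log2 scale in KO sham livers 1 to 4. In KO IR livers 1 to 4 it was 0.13, 0.18, 0.034 and 0.0035. The groups did not overlap (exact permutation p = 0.0286, adjusted 0.0327), but KO IR 3 and 4 were close to KO sham 2 and 3. Among the KO IR libraries the TMM factors were also higher in 1 and 2, at 1.2 and 1.195, than in 3 and 4, at 1.075 and 1.084. The KO sham factors were 0.939, 0.985, 0.95 and 0.864 in libraries 1 to 4. The lowest of these was in KO sham 4, while the lowest length value was in KO sham 1. The part of the TMM factors was not tested.

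Some called transcripts had next to no counts in one of the groups. Of the rises 78 had at most 3 counts over the 4 KO sham libraries, and 49 of these had none. Their level after IR was mostly low, with a median of 0.682 TPM among the 78 and a highest mean of 27.7 TPM. Of the falls 28 had at most 3 counts over the 4 KO IR libraries, 20 of them none, from a median of 0.298 TPM and at most 3.04 TPM in sham livers.

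The KO IR libraries differed in how often each lay nearest to the sham group. Among the 2105 rises, KO IR 3 was the IR library nearest to the sham group in 895 (42.5%), KO IR 1 in 617, KO IR 4 in 448 and KO IR 2 in 145 (6.89%). Among the 1970 falls the order of the extremes was the same, with KO IR 3 nearest in 1065 (54.1%) and KO IR 2 in 139 (7.06%). By this count, over transcripts called in these same libraries, KO IR 3 was most often the closest and KO IR 2 least often. Other measures gave another order: KO IR 4 was the closest to sham in the share of the 100 most abundant WT sham transcripts, in transcripts that hold 50% of TPM and in transcripts of at least 1 TPM. On the sham side no library dominated the rises, where KO sham 4 was nearest to the IR group in 584 (27.7%) and KO sham 2 in 464 (22%). KO sham 4 was nearest in 681 (34.6%) of the falls. Over the 6657 transcripts of at least 10 CPM, the median SD of log2 CPM between libraries was 0.167 in KO IR, 0.15 in KO sham, 0.14 in WT IR and 0.219 in WT sham livers.

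In the transcripts called in WT livers, KO IR 2 and KO IR 1 were the extremes of the rises and KO IR 2 and KO IR 3 those of the falls. The median log2 deviation from WT sham was 0.72, 0.85, 0.80 and 0.84 in KO IR 1 to 4 for those that rose in WT, and 0 to 0.13 in the KO sham livers. For those that fell in WT it was -0.90, -1.16, -0.78 and -0.95 in KO IR 1 to 4 and 0 to 0.09 in KO sham livers. All 4 IR livers were thus on the same side of the sham livers in both lists. With KO IR 4 as the only IR library, assumed to vary like the other groups, 928 transcripts were called, of which 526 fell.

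Beside the WT livers, most transcripts called in KO had the same sign, and their median change was larger in KO. Of the 2105 rises in KO, 1802 (85.6%) were also higher after IR in WT, with a median log2 fold change of 0.98 in KO and 0.33 in WT. Of the 1970 falls 1707 (86.6%) were also lower in WT, with medians of -0.90 and -0.33. Over all tested transcripts 61.7% had the same sign. The transcripts were called on the KO contrast, a choice that favours large KO values. How much of the gap between the medians comes from this choice was not tested. Among the 513 transcripts that rose in WT, the median log2 fold change was 0.7 in KO and 0.84 in WT. Among the 326 that fell in WT, it was -1.01 in KO and -0.84 in WT. Those lists were called on the WT contrast, a choice that favours large WT values. WT livers had 839 calls (2.33% of those tested), and 2 of the KO rises fell in WT and 1 of the KO falls rose there.

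The test of the difference itself passed for few transcripts. The KO and WT responses differed in 119 of 36041 (0.330%), and 3947 had an unadjusted p under 0.05. Transcripts that did not pass are not thereby shown to respond alike in the genotypes. Among the KO rises 50 (2.38%) and among the KO falls 63 (3.20%) were of these, and in each of them the response was further in KO. The interaction shares the KO libraries with the KO contrast, so these counts are no separate support. The count of 119 became 63, 58, 51 and 72 without KO sham 1, 2, 3 or 4, and 62, 55, 378 and 137 without KO IR 1, 2, 3 or 4. None of 5 library measures passed an exact permutation test of the difference in response between the genotypes, a test added after seeing the data. The gain in transcripts of at least 1 TPM was 2203 in KO and 380.8 in WT (p = 0.0265, adjusted 0.104 over 5 measures), and in transcripts that hold 50% of TPM 13.75 and 6.5 (exact permutation p = 0.104, adjusted 0.152).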

How the data were processed

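Per the submitters' processing notes, the authors used Trimmomatic and kallisto with build mm10 (versions: not given in the sources used here). Deposited files hold kallisto's length, estimated counts and TPM for 111462 transcripts per library. Estimated counts were rounded, and the authors' TPM values describe levels. Transcripts were kept by edgeR's filterByExpr. All 16 libraries entered the quasi-likelihood fit of edgeR 4.0.16 under R 4.3.3, scaled by TMM, which left 12 degrees of freedom for error, with Benjamini-Hochberg adjustment over all transcripts and a threshold of 0.05. Tests of 1 value per library were two-sided exact permutation tests over 70 arrangements, adjusted over 8 measures, and over 4900 arrangements for genotype. DESeq2 1.42.0 was an alternative.

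The named transcripts are the 2 of largest fold change in each direction among called transcripts of at least 10 CPM whose groups did not overlap. No table paired transcripts with genes, so the planned test per gene and the gene lists were not run. The members and lists were chosen with earlier results of these data known. In pairs of libraries of a group, the mean squared difference was at least 26.6 times the variance of counting noise. None was therefore treated as a duplicate. This ratio cannot tell whether libraries come from the same mouse.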

Additional observations from a re-analysis of the deposited data

Results flagged for a closer look

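KO IR 4 had 44.35 M estimated counts, far above KO IR 1 to 3 at 37.79 to 38.22 M, past the 95% critical value of Dixon's test in its group of 4. ENSMUST00000041388.10 stood at 0.1973 TPM in KO sham 2 against 0.0665 to 0.0726 TPM in the other KO sham libraries by the same test. Of 24 groups of 4 examined, chance would give about 1 in 20 such values. The response to IR differed between KO and WT livers in 119 transcripts by edgeR's test of the difference.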

How the results depend on the processing

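The 4075 calls in KO livers (2105 rises, 1970 falls) became 6238 (5185 and 1053) with library totals as the scale and 1919 (1039 and 880) with a minimum absolute log2 fold change of 1. Among settings chosen after seeing the data, KO IR 4 as the only KO IR library gave 928, of which 526 fell, and leaving out both KO sham 4 and KO IR 2 gave 2230 (1037 and 1193). Leaving out 1 KO library gave 2794 to 3762 calls, 1363 to 1873 rises and 1431 to 1889 falls. DESeq2 called 5571, RLE factors 4058, no low-count filter 3047, at least 10 CPM in 4 libraries 2865, the KO libraries alone 3955 and, also chosen later, the sum of identical transcripts 4004. With library totals the cause of the shift is the scale itself. For the other changes the cause was not tested. Some of these settings had fewer samples or a stricter call.

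The 119 differences between genotypes became 451 with at least 10 CPM in 4 libraries, 1085 by DESeq2, 192 with library totals, 67 without the low-count filter, 63 with KO IR 4 as the only KO IR library, 39 without both KO sham 4 and KO IR 2, and 51 to 378 on leaving out 1 KO library. The 839 calls in WT livers became 1896 by DESeq2, 489 without the filter and 351 with the minimum fold change. With the replicate number as a replicate block, KO livers had 3618 calls, WT livers 595 and the difference 35. The numbers share no stated source, same-numbered KO sham and KO IR libraries had correlations of -0.127 to 0.093 between their deviations, and 1 of 4 KO sham libraries correlated best with its own number.

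The named transcripts were picked for their size and separation in these libraries, so passing again on them is no separate support. The rises of ENSMUST00000040404.7 and ENSMUST00000041388.10 passed under the 17 alternatives run, with log2 fold changes of 5.90 to 7.11 and 4.68 to 6.61. The falls of ENSMUST00000177567.7 and ENSMUST00000102755.3 passed under 17 of 18, with log2 fold changes over all 18 of -8.86 to -6.72 and -6.79 to -5.63. They missed with KO IR 4 as the only KO IR library, where the fold changes were the most negative, -8.86 and -6.79 (edgeR adjusted p = 0.122 and 0.0755). Falls outnumbered rises (1549 and 1498) with no filter on low counts, and also in 5 of the 8 fits that lacked 1 KO library. The test per gene was not run. The gain in transcripts past a TPM minimum kept its direction with minimums of 0.5 and 5 TPM. Low counts limit transcripts under 1 CPM most.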

Other observations

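Some tested transcripts cannot be told apart in these files. In 315 sets, 633 transcripts had the same length and, to 4 decimals, the same estimated count in all 16 libraries, with up to 4 transcripts in a set. Of these transcripts 22 rose and 67 fell in KO livers after IR, 2.18% of all calls against 1.76% of the transcripts tested. Each such set counts as several transcripts in the totals given above.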
